A study of Homo sapiens with 3 samples.

Results

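Solute carriers are membrane proteins that move small molecules across the plasma membrane and the membranes of organelles, and their gene symbols are SLC, a family number, A and a member number. The genes described here have a symbol that starts with SLC and a digit, and were chosen by their measured level: the coding RefSeq transcripts of each (rows with an NM_ accession) together averaged at least 0.3 CPM over 3 RNA-sequencing libraries. CPM is the count scaled to a library of 1000000 counts, after TMM normalisation, which sets the library sizes so that most features are level. The same 3 libraries gave the values that chose the genes and the values below, so these are a description. There were 32 such genes, out of 145 SLC symbols with rows in the table and 385 SLC symbols with a coding transcript in the RefSeq annotation used for naming. The libraries came from cells labelled PLC, a name of a human liver cancer line. They were 1 library with a non-targeting control (NTC) and 1 each with a short hairpin RNA against HKDC1 (shHKDC1) and against RBBP5 (shRBBP5). The study asked whether HKDC1, a hexokinase-domain protein, and RBBP5, a subunit of the complexes that methylate histone H3 at lysine 4, regulate gene expression. The sources used here name neither the hairpin sequences nor the time of harvest, nor whether the cells were clones. With 1 library per group there are no replicates, so no difference below has a replicate check, and no test between conditions was made.

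In the liver, solute carriers bring glucose, amino acids, carboxylates, sulfate and bile acids across the hepatocyte membrane, and other members load mitochondria, the Golgi and lysosomes. Most work as uniporters, as symporters driven by sodium or protons, or as exchangers. Several of the members below are known mainly from other organs, such as the glutamate transporters of neurons or the zinc transporter of pancreatic islets. Because RNA was taken from whole cultures, fewer cells expressing a gene and less RNA per cell cannot be told apart.

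The NTC library held 161750310 estimated counts (units), shHKDC1 115556160 and shRBBP5 154533913. Anonymous loci without gene names held over 99% of the units in each library, so the members are carriers with a named row and do not include carriers whose reads lie in such loci, which were not analysed here. HKDC1 and RBBP5 had no NM_ row, so the knockdowns themselves were not analysed here. Of 13 hepatocyte markers only fibrinogen FGB had a row, at 2.41 CPM in NTC, 0.600 CPM in shHKDC1 and 2.30 CPM in shRBBP5, and of 4 epithelial markers only CDH1 had one, at 5.09, 1.49 and 2.97 CPM. Of 12 leukocyte, endothelial and fibroblast markers, 10 had rows and 0 reached a mean of 0.3 CPM. PTPRC, CD3E and COL1A2 were at 0 in every library, while the endothelial gene VWF was at 0.0171 CPM in NTC, 0.707 CPM in shHKDC1 and 0.0188 CPM in shRBBP5. The part of these marker differences in the carrier results was not tested.

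Calls rest on size and counting error: a called gene differs by 2-fold or more between libraries, and the exact 95% interval of its log2 ratio (Clopper-Pearson, in brackets) leaves out 0. The intervals take 4 units as 1 sequenced fragment and cover counting error only. In shHKDC1 against NTC, 2 of the 32 carriers were called higher, where 15.5% of the 1591 named genes at the same mean CPM were, and 10 were called lower, where 21.3% were. In shRBBP5 against NTC, 1 was called higher against 4.78% of named genes, and 5 were called lower against 11.8%. The direct comparison of shHKDC1 with shRBBP5 gave 2 higher and 8 lower, against 19.2% and 17.2% of named genes. The median log2 ratio of the carriers was −0.53, −0.25 and −0.25 in these comparisons, and that of all named genes −0.23, −0.20 and −0.03. A carrier listed at 0 in a library did not change these medians when set at its bound.

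The level filter shapes these counts. Of the 32 carriers, 30 were at 0.3 CPM or more in NTC, 25 in shHKDC1 and 28 in shRBBP5, and 3 reached that level in 1 library alone: SLC7A3 in shHKDC1, and SLC16A7 and SLC13A5 in NTC. A gene that passes through 1 library had to differ between libraries. For the 22 carriers at 0.3 CPM or more in every library, 1 was called higher and 5 lower in shHKDC1 against NTC, beside 8.61% and 20.1% of the 1208 named genes filtered in the same way. The medians of these sets in that comparison were −0.43 and −0.32, closer together than those under the filter on the mean. In shRBBP5 against NTC they were −0.25 and −0.17, further apart than under the filter on the mean. There 1 carrier was called higher and 3 lower, beside 3.64% and 8.03% of those named genes. In the direct comparison the medians were −0.20 and −0.12, closer together, with 1 higher and 4 lower beside 11.8% and 16.2%. Without TMM scaling, by total counts, the calls over all named genes went from 246 higher and 339 lower to 186 and 494 in shHKDC1 against NTC, and from 305 and 273 to 243 and 360 in the direct comparison. That scaling moved the median of all named genes to −0.53 and that of the carriers to −0.81 in shHKDC1 against NTC.

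**Figure D1:**
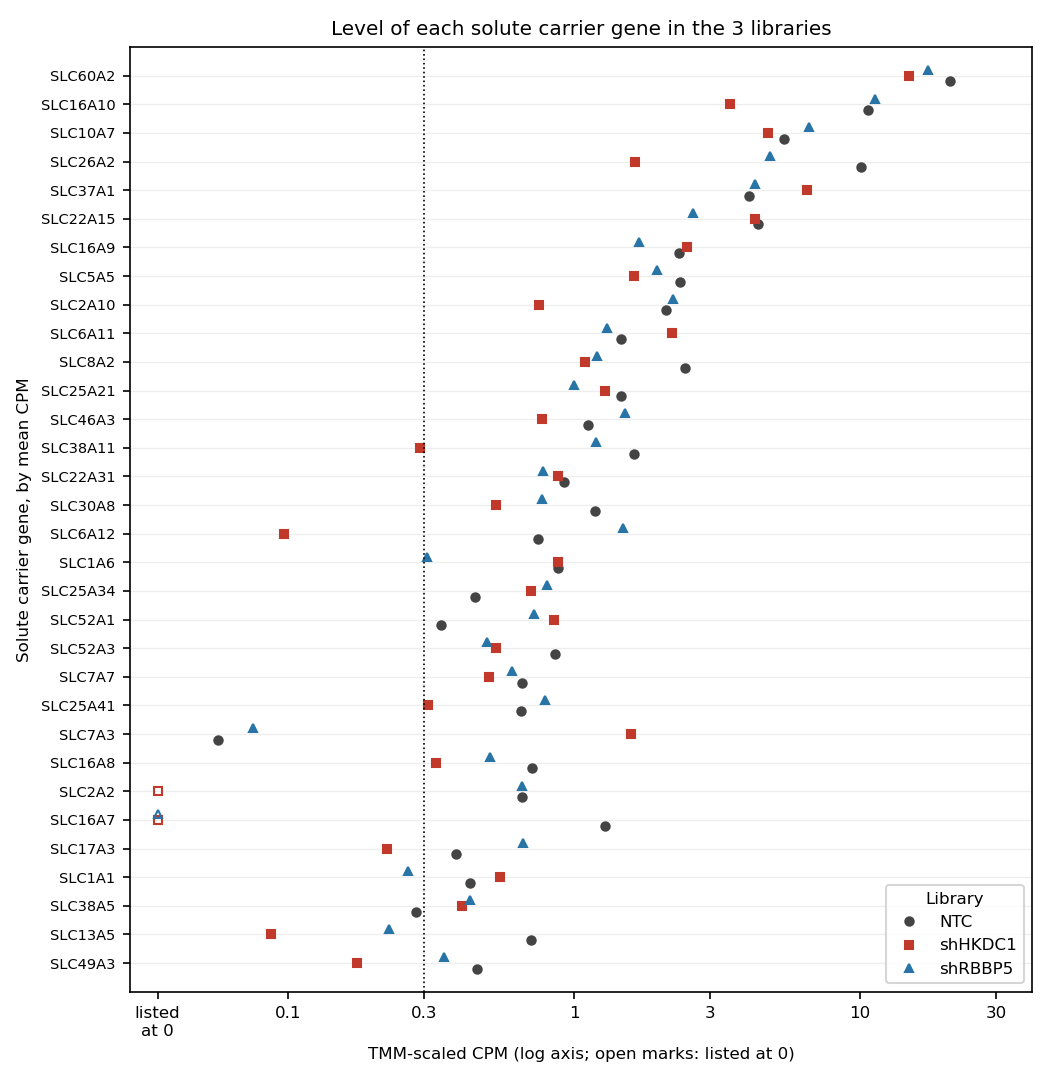
TMM-scaled CPM (log axis) of the 32 solute carrier genes in the NTC (circle), shHKDC1 (square) and shRBBP5 (triangle) libraries, ordered by mean CPM, with the dotted line at the 0.3 CPM that chose them on their mean. SLC60A2 lies between 14.8 and 20.6 CPM in all 3 libraries, SLC26A2 spreads from 1.64 to 10.1 CPM, and open marks show SLC2A2 and SLC16A7 listed at 0.

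Across the 27 members with a known transcript length for at least 75% of their units, levels could be set side by side per kilobase. The aromatic amino acid carrier SLC16A10 had a mean of 3.38 CPM per kilobase over the 3 libraries, SLC10A7 3.32 and SLC60A2 2.95. SLC37A1 followed at 1.36, SLC22A15 at 0.798 and SLC26A2 at 0.683 CPM per kilobase. The glutamate transporter SLC1A1 was lowest of the 27, at 0.112, and the median of the 27 was 0.304. In NTC, SLC26A2, with a transcript of 8080 bases, was close to SLC16A10, of 2508 bases, in plain CPM (10.1 and 10.7), and lower per kilobase (1.25 and 4.25 CPM per kilobase).

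SLC26A2 is the sulfate and chloride exchanger that supplies sulfate for the modification of proteoglycans and other molecules. It was at 10.1 CPM in NTC, 1.64 CPM in shHKDC1 and 4.85 CPM in shRBBP5, on about 441, 42 and 193 fragments. Both knockdown libraries lay below NTC, and shHKDC1 below shRBBP5. The log2 ratio to NTC was −2.62 [−3.12 to −2.17] in shHKDC1, a 6.14-fold lower level, and −1.05 [−1.31 to −0.81] in shRBBP5. SLC26A2 was the single member of the inorganic anion families, of which 11 symbols had rows.

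SLC26A2 belongs to the 4 carriers called lower in both knockdown libraries, with SLC8A2, SLC13A5 and SLC16A7. Both ratios of each gene share the NTC library. The bases upstream of the annotated start are shown for 3 of them and for SLC16A10, which was lower in shHKDC1 alone, because H3K4 trimethylation lies mainly at promoters rich in CG pairs. SLC16A7 has a pair of annotated starts and is left out. Each is the 250 bases before the start, 5′ to 3′ on the gene's strand, from RefSeq on GRCh38.p14 (not the hg19 build of the counts), with CG pairs in capitals.

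SLC26A2, chr5:149960508-149960757, plus strand: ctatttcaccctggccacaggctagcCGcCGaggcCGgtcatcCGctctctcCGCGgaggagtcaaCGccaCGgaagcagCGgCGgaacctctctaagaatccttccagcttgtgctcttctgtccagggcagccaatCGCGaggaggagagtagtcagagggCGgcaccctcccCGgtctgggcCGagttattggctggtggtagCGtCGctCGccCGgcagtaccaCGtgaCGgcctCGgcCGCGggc
SLC8A2, chr19:47471894-47472143, minus strand: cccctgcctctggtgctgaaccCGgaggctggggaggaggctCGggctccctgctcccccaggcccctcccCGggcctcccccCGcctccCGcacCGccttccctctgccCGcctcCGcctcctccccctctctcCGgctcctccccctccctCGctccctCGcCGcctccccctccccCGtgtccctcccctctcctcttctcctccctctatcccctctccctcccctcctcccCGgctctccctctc
SLC13A5, chr17:6713370-6713619, minus strand: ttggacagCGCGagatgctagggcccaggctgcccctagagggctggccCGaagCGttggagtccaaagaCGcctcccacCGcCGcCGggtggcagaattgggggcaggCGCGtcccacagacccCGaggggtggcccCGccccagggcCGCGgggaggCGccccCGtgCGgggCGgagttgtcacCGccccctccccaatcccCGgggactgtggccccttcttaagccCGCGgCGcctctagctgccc
SLC16A10, chr6:111087253-111087502, plus strand: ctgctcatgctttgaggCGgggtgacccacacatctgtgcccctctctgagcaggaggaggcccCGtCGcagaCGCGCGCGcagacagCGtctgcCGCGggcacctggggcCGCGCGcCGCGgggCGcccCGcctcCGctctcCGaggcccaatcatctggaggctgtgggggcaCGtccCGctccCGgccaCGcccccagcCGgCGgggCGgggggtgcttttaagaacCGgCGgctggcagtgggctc

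These windows held 24 CG pairs for SLC26A2, 14 for SLC8A2, 23 for SLC13A5 and 28 for SLC16A10. Among 35116 promoter windows of the same length in that table, 23.7% held at least as many as SLC26A2, 44.8% as SLC8A2, 25.8% as SLC13A5 and 15.9% as SLC16A10, and the median was 11. A CG pair reads the same on both strands. Of the 26 members with a window here, taking the window with most pairs, the 9 called in either knockdown against NTC ranged from 2 to 28 with a median of 22, and the 17 others ranged from 1 to 39 with a median of 23. Member windows on the chromosome of SLC30A8, a gene called lower in shHKDC1, were left out, while the windows of all genes kept that chromosome. SLC7A3, SLC52A1, SLC6A12, SLC52A3 and SLC25A41 had no window either. Both carriers called higher against NTC, SLC7A3 and SLC52A1, are among these, so the 9 with a window were all called lower. The lowest count among the called members with a window was 2, for the glucose transporter SLC2A2. The TATA box letters TATAAA, searched on both strands, were in 0 of the 32 member windows kept here and in 10.7% of all windows.

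Carriers of amino acids made up 7 members, of 22 symbols with rows. In shHKDC1 against NTC 1 was called higher and 2 lower, beside 15.5% and 21.3% of all named genes. In shRBBP5 1 was called lower, beside 11.8% of named genes. The 1 called higher, SLC7A3, passed the filter through shHKDC1 alone. SLC16A10, also named TAT1, carries tryptophan, tyrosine and phenylalanine and also thyroid hormones. It stood at 10.7 CPM in NTC, 3.51 CPM in shHKDC1 and 11.3 CPM in shRBBP5. Only the shHKDC1 library was low among the 3, with a log2 ratio to NTC of −1.60 [−1.94 to −1.27], while that of shRBBP5 was 0.08 [−0.11 to 0.27]. The direct ratio of shHKDC1 to shRBBP5 was −1.68 [−2.02 to −1.35].

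SLC38A11, a member of the sodium-coupled neutral amino acid family, was at 1.62 CPM in NTC, 0.290 CPM in shHKDC1 and 1.20 CPM in shRBBP5. Its ratio to NTC was −2.46 [−3.65 to −1.33] in shHKDC1, on about 8 fragments there, and −0.44 [−0.99 to 0.12] in shRBBP5. As for SLC16A10, shHKDC1 was the low library. SLC7A3, the cationic amino acid transporter CAT-3 that carries arginine and lysine, went the other way. It had 1.58 CPM in shHKDC1 on about 41 fragments, against 0.0571 CPM in NTC and 0.0752 in shRBBP5, each on about 3 fragments. The log2 ratio of shHKDC1 was 4.72 [2.89 to 6.87] to NTC and 4.34 [2.75 to 6.74] to shRBBP5. With so few fragments in the other libraries the size is known only within those intervals.

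SLC1A6, the glutamate transporter EAAT4, was low in shRBBP5 instead. Its levels were 0.879 CPM in NTC, 0.881 CPM in shHKDC1 and 0.307 CPM in shRBBP5, a ratio of −1.51 [−2.63 to −0.60] for shRBBP5 to NTC. The direct ratio of shHKDC1 to shRBBP5 was 1.51 [0.50 to 2.71]. The other glutamate transporter, SLC1A1 (EAAT3), was called in no comparison, at 0.434, 0.552 and 0.263 CPM in NTC, shHKDC1 and shRBBP5. SLC7A7, a light chain of the y+L transporter, was at 0.656, 0.503 and 0.608 CPM. The glutamine carrier SLC38A5 was at 0.280, 0.406 and 0.432 CPM, and neither gene was called.

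The sugar families had 4 members, of 12 symbols with rows. SLC60A2, a sodium-dependent glucose transporter also named MFSD4B, was the most abundant member in CPM, at 20.6 in NTC, 14.8 in shHKDC1 and 17.3 in shRBBP5. Neither knockdown was called, with ratios of −0.48 [−0.65 to −0.30] and −0.25 [−0.40 to −0.11]. SLC2A10 (GLUT10), a facilitative transporter of the endomembranes, was at 2.11 CPM in NTC, 0.755 CPM in shHKDC1 and 2.22 CPM in shRBBP5. It was called lower in shHKDC1 against NTC (−1.47 [−2.22 to −0.73]) and against shRBBP5 (−1.55 [−2.31 to −0.82]), and its ratio in shRBBP5 to NTC was 0.08 [−0.35 to 0.52].

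SLC2A2 encodes GLUT2, the glucose transporter of hepatocytes and pancreatic beta cells. It was at 0.656 CPM in NTC and 0.658 in shRBBP5, on about 29 and 26 fragments, and was listed at 0 in shHKDC1. A count of 0 allows up to 3 fragments, or 0.116 CPM in that library, so SLC2A2 was at least 5.65-fold lower in shHKDC1 than in NTC and at least 5.67-fold lower than in shRBBP5, with counting error of the other library not included. The upper interval bounds of these log2 ratios were −2.12 and −2.09. Of all 1591 named genes, 0.880% were listed at 0 in shHKDC1, 0.754% in shRBBP5 and 0.377% in NTC. The hepatocyte gene FGB was also low in shHKDC1 alone among the libraries (−1.99 [−2.82 to −1.20] to NTC), and its part in the result was not tested. SLC37A1, a glucose-6-phosphate and phosphate exchanger of the endoplasmic reticulum, was at 4.11 CPM in NTC, 6.54 CPM in shHKDC1 and 4.29 CPM in shRBBP5. Its ratio in shHKDC1 (0.67 [0.36 to 0.98]) lay above 0 and under the 2-fold rule.

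Carriers of carboxylates had 4 members, of 9 symbols with rows, and 2 of them were called lower in both knockdowns. Those 2, SLC13A5 and SLC16A7, reached 0.3 CPM in NTC alone, so they passed the filter through the library where they were high. Of all named genes at the same mean CPM, 3.83% were called lower in both. SLC13A5, the sodium-citrate cotransporter NaCT of the hepatocyte membrane, was at 0.708 CPM in NTC, 0.0871 CPM in shHKDC1 and 0.226 CPM in shRBBP5. Its ratio to NTC was −2.95 [−6.30 to −1.22] in shHKDC1, on about 2 fragments there, and −1.63 [−2.90 to −0.54] in shRBBP5, on about 9. NTC was the highest library, and the knockdown libraries did not differ beyond counting error (−1.32 [−4.79 to 0.73]).

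SLC16A7 encodes MCT2, a proton-linked transporter of lactate, pyruvate and ketone bodies. Its coding rows held 1.28 CPM in NTC, on about 56 fragments, and were listed at 0 in both knockdown libraries, so that they were at least 11.1-fold lower in shHKDC1 and at least 17.1-fold lower in shRBBP5, with the counting error of NTC left out. The exact intervals of the log2 ratios, which include it, reach up to −3.11 and −3.74. A noncoding RefSeq row (NR_) of the same gene did the reverse, with 0 in NTC, 0.310 CPM in shHKDC1 and 0.389 in shRBBP5. With that row added to the coding rows, SLC16A7 was still called lower, at −2.03 [−3.33 to −0.97] in shHKDC1 and −1.72 [−2.57 to −0.85] in shRBBP5. The size of its difference therefore depends on which rows are summed, while its direction did not.

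The remaining monocarboxylate family members were not called in any comparison. SLC16A9 (MCT9), a carnitine and creatine carrier, was at 2.33 CPM in NTC, 2.48 CPM in shHKDC1 and 1.69 CPM in shRBBP5. SLC16A8 (MCT3), known from the retinal pigment epithelium, was at 0.713, 0.329 and 0.508 CPM. Its ratio in shHKDC1 to NTC was −1.10 with an interval of −2.28 to 0.08, and it became a call with total-count scaling (−1.38) and with units taken as reads.

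Ion and metal carriers were 2 members. SLC8A2, the sodium-calcium exchanger NCX2 of brain, was at 2.44 CPM in NTC, 1.09 CPM in shHKDC1 and 1.20 CPM in shRBBP5. Both knockdown libraries lay below NTC, at −1.15 [−1.83 to −0.56] and −1.02 [−1.54 to −0.52], and their direct ratio was −0.14 [−0.88 to 0.55]. A pseudocount of 5 units put the shRBBP5 ratio at −0.998, just short of the 2-fold rule. SLC30A8, the zinc transporter ZnT8 of insulin granules, was at 1.19 CPM in NTC, 0.532 CPM in shHKDC1 and 0.771 CPM in shRBBP5. It was called lower in shHKDC1 (−1.15 [−2.10 to −0.26]) and not in shRBBP5 (−0.62 [−1.30 to 0.06]). The direct ratio of −0.53 [−1.54 to 0.43] did not separate the knockdowns. Per kilobase of transcript the order of SLC30A8 changed: NTC was lowest at 0.292 CPM, against 0.356 for shHKDC1 and 0.319 for shRBBP5. Its row NM_001172814.2, of 5242 bases, held 176 units in NTC and 0 with either knockdown. The shorter NM_001172811.2, of 1393 bases, went from 22 units to 50 with shHKDC1 and 53 with shRBBP5. The lower call of SLC30A8 thus holds for summed counts and not for levels per kilobase.

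Both riboflavin transporters of the SLC52 family were members. SLC52A1 (RFVT1) was the 1 carrier called higher in both knockdown libraries, at 0.342 CPM in NTC, 0.852 CPM in shHKDC1 and 0.727 CPM in shRBBP5. Its ratios were 1.31 [0.30 to 2.37] and 1.08 [0.14 to 2.09], on about 15 fragments in NTC. SLC52A3 (RFVT3) was at 0.856, 0.532 and 0.495 CPM and was not called.

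Of the neurotransmitter family SLC6, SLC6A12 and SLC6A11 passed the filter. SLC6A12 is the betaine and GABA transporter BGT-1, which takes up betaine as an osmolyte and is expressed in liver and kidney. It was at 0.748 CPM in NTC, 0.0968 in shHKDC1 on about 3 fragments, and 1.49 in shRBBP5. The shHKDC1 library was lowest and the shRBBP5 library highest, with ratios to NTC of −2.88 [−5.05 to −1.02] and 0.99 [0.34 to 1.63]. The second ratio is just under the 2-fold rule, and the direct ratio of shHKDC1 to shRBBP5 was −3.87 [−5.99 to −2.05]. SLC6A11, the GABA transporter GAT-3, was at 1.46 CPM in NTC, 2.21 CPM in shHKDC1 and 1.31 CPM in shRBBP5 and was not called.

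The 3 mitochondrial carriers, of 10 symbols with rows, were not called against NTC. SLC25A41, an ATP-magnesium and phosphate carrier, was at 0.651 CPM in NTC, 0.310 CPM in shHKDC1 and 0.790 CPM in shRBBP5 and was called lower in the direct comparison (−1.33 [−2.70 to −0.23]). Its ratio in shHKDC1 to NTC, −1.05 [−2.44 to 0.07], became a call with total-count scaling (−1.33) and with units taken as reads. SLC25A21, which exchanges oxodicarboxylates, was at 1.46, 1.29 and 1.00 CPM. Its antisense gene SLC25A21-AS1 was at 1.15, 1.18 and 0.696 CPM, and since the strand setting of the counting is not given in the sources used here, reads of the 2 genes may not be separable. SLC25A34 was at 0.451, 0.707 and 0.802 CPM.

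The 3 carriers of organic ions and bile acid relatives were called in no comparison. SLC10A7, a Golgi and endoplasmic reticulum protein needed for skeletal development, was at 5.41 CPM in NTC, 4.79 CPM in shHKDC1 and 6.64 CPM in shRBBP5. SLC22A15 was at 4.39, 4.31 and 2.61 CPM, with a ratio of −0.75 [−1.11 to −0.40] in shRBBP5 that stayed under the 2-fold rule, and SLC22A31 was at 0.925, 0.881 and 0.777 CPM. The sodium-iodide symporter SLC5A5 was at 2.35 CPM in NTC, 1.62 CPM in shHKDC1 and 1.96 CPM in shRBBP5 and was not called either.

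Lysosomal and vesicular families had 3 members, and none was called against NTC at the 2-fold rule. SLC17A3 (NPT4), an organic anion and urate transporter, was at 0.388 CPM in NTC, 0.223 CPM in shHKDC1 and 0.664 CPM in shRBBP5, and was called lower in shHKDC1 than in shRBBP5 (−1.55 [−3.11 to −0.24]). SLC46A3, a lysosomal membrane carrier, had about 49, 20 and 60 fragments in NTC, shHKDC1 and shRBBP5, with a direct ratio of −0.95 [−1.77 to −0.21]. SLC49A3 had 0.457, 0.174 and 0.351 CPM and a ratio of −1.36 in shHKDC1 to NTC whose interval, −3.01 to 0.22, included 0. Total-count scaling made this a call (−1.64), as did units taken as reads, and total-count scaling also made a call of the direct ratio of SLC46A3 (−1.16).

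**Figure D2:**
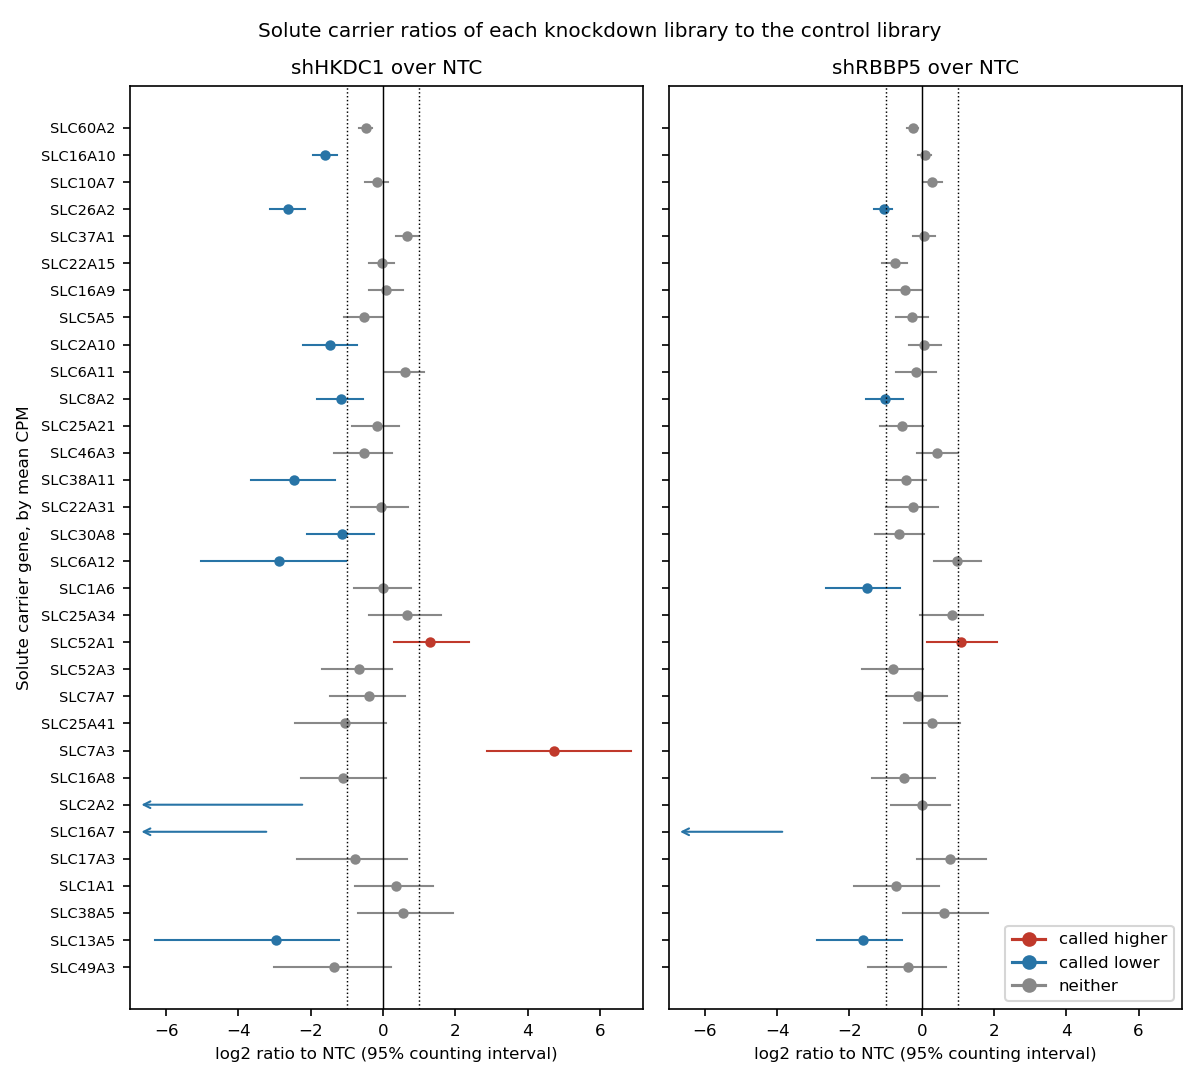
Log2 ratio of shHKDC1 (left) and shRBBP5 (right) to NTC for the 32 carriers in order of mean CPM, with exact 95% counting intervals, dotted lines at 2-fold, red for called higher, blue for called lower and grey for neither. Arrows start at the upper interval bound of genes listed at 0, and SLC7A3 has no mark on the right, where both libraries are at about 3 fragments; both panels share the NTC library, and 10 carriers are blue on the left and 5 on the right.

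In all, 13 of the 32 carriers were called in at least 1 knockdown against NTC, 4 lower in both, 6 lower in shHKDC1 alone, SLC52A1 higher in both, SLC7A3 higher in shHKDC1 alone and SLC1A6 lower in shRBBP5 alone. No carrier was called in opposite directions. Of the 1591 named genes, 45.6% were called in at least 1 knockdown, against 40.6% of the carriers. The share lower in both was 3.83% of named genes and 12.5% of the carriers, and the share lower in shHKDC1 alone 17.0% and 18.8%. A further 1.89% of named genes were higher in both and 2.07% were called in opposite directions. A shared NTC library enters both calls, and no difference between these shares was tested. Of the 4 carriers lower in both, SLC13A5 and SLC16A7 reached 0.3 CPM in NTC alone, so the filter on the mean favours this class. These shares were not taken for genes at 0.3 CPM or more in every library. The 6 were SLC16A10, SLC2A10, SLC38A11, SLC30A8, SLC6A12 and SLC2A2. For 5 of these, all but SLC30A8, the direct ratio of shHKDC1 to shRBBP5 was called lower as well. The other 3 of the 8 called lower directly were SLC26A2, SLC25A41 and SLC17A3, and the 2 called higher directly were SLC7A3 and SLC1A6. The remaining 17 carriers were called in no comparison, as were 47.8% of named genes.

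**Figure D3:**
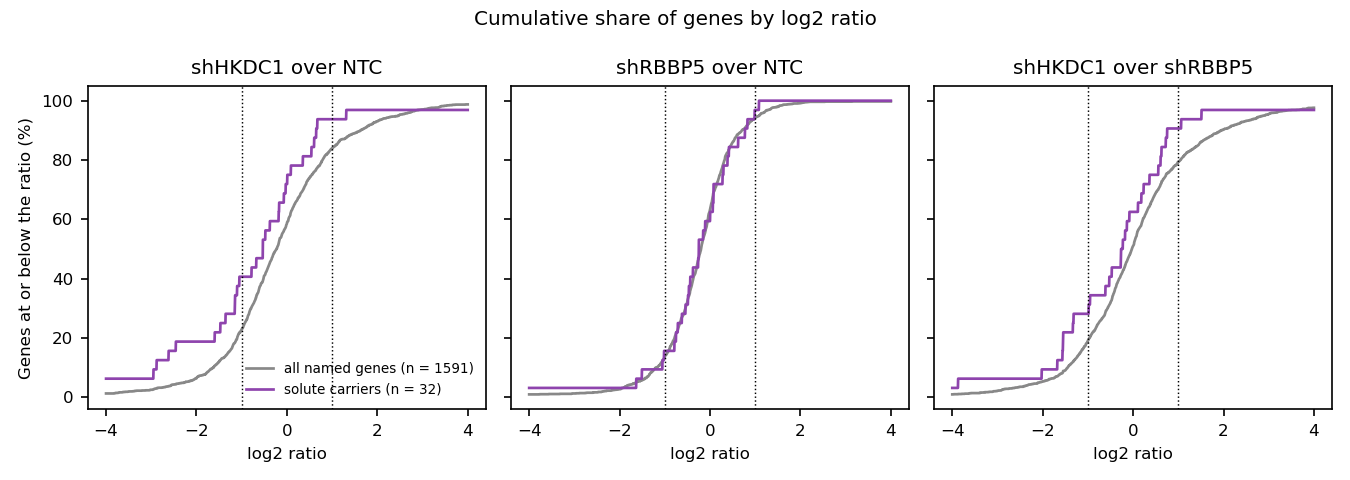
Cumulative share of genes (%) at or below each log2 ratio for the 32 carriers (purple) and the 1591 named genes at the same mean CPM (grey) in the 3 comparisons, with dotted lines at 2-fold; values beyond −4 or 4 lie outside the axis. Medians of carriers and named genes are −0.53 and −0.23 in the left panel, −0.25 and −0.20 in the middle and −0.25 and −0.03 in the right, with no test of these differences.

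The 32 members rest on 98 transcript rows, of which 40 were at 0 in every library, and 10 members have a single row. Of the 14 members with units in more than 1 row, 11 were counted as having a different leading row in different libraries. That count includes SLC46A3, whose leading row elsewhere was level with another row in shRBBP5, each at 0.752 CPM. It also includes SLC7A3, whose row in shRBBP5 rests on about 3 fragments. SLC16A9 had all of its units in NM_194298.3 in NTC and shRBBP5, at 2.33 and 1.69 CPM, and all of them in NM_001323981.2 in shHKDC1, at 2.48 CPM. Both transcripts are 4178 bases long in the matched annotation. Its gene total was called in no comparison, while NM_194298.3 was at 0 in shHKDC1 and NM_001323981.2 was at 0 in NTC and shRBBP5.

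SLC10A7 divided its units between NM_001300842.3, a transcript of 1134 bases, and NM_001029998.6, of 2798 bases. The shorter held 3.19 CPM in NTC, 0.581 CPM in shHKDC1 and 3.47 CPM in shRBBP5, and the longer 1.87, 3.79 and 2.93 CPM. The shHKDC1 library was thus low in the first and high in the second. The gene total was called in no comparison, though its ratio of shHKDC1 to shRBBP5 was −0.47 [−0.79 to −0.16]. Among called members, SLC6A12 had its units in NM_003044.5 in NTC and shHKDC1 and in NM_001122848.3 in shRBBP5. SLC38A11 used NM_001351540.2 in NTC and shRBBP5 and NM_001351538.2 in shHKDC1.

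When each gene was represented by its most abundant row alone, the ratio of shRBBP5 to NTC changed sign for SLC1A6 and SLC52A1. For SLC1A6 it was 2.50 [0.23 to 5.69], on 7 units in NTC, and for SLC52A1 it was −1.39 with an interval of −3.64 to 0.13, which includes 0. The most abundant row of SLC6A12 was at 0 in both NTC and shHKDC1, so its call in shHKDC1 rests on the other row. The calls of SLC26A2, SLC16A10, SLC2A10 and SLC8A2 cannot move in this way, since each has 1 row. Whether transcript use or the assignment of reads to near-identical transcripts differed between the libraries was not tested.

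**Figure D4:**
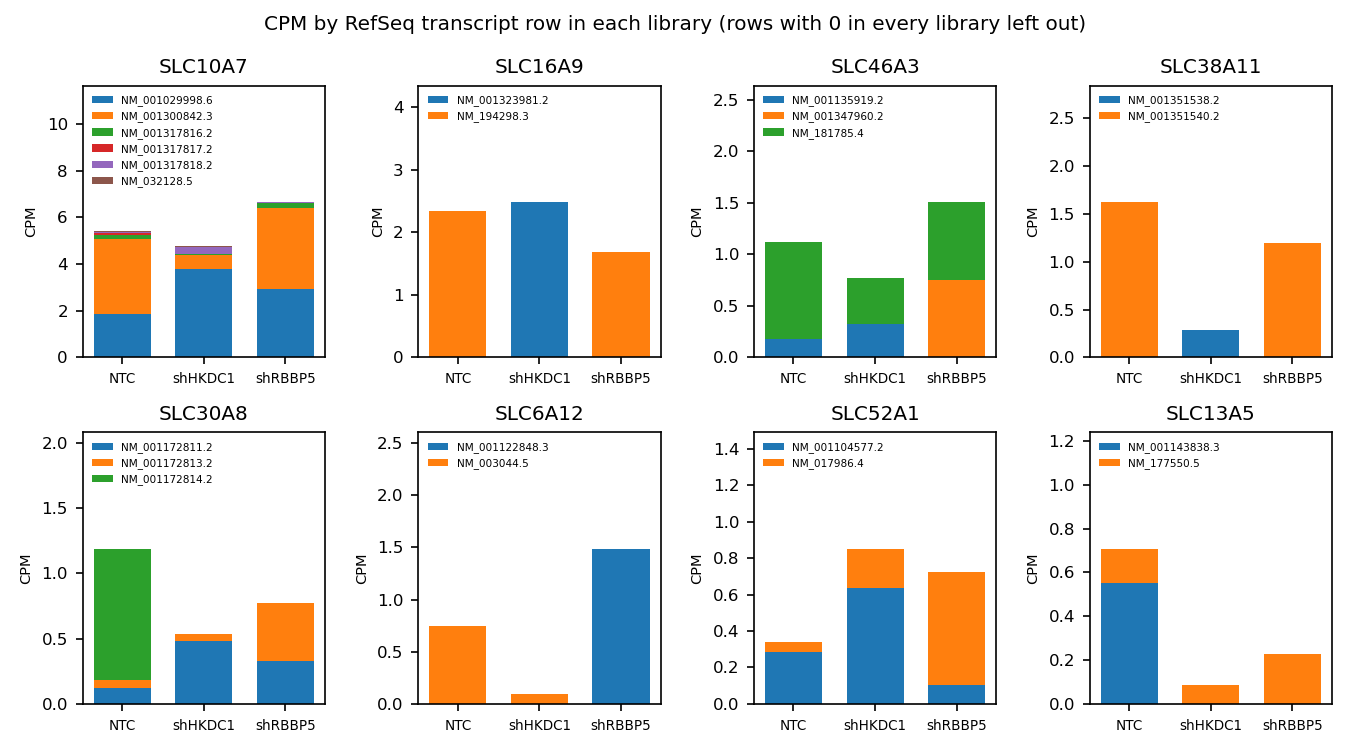
CPM per RefSeq transcript row (colours, stacked) in the 3 libraries for 8 solute carriers with more than 1 row in use; bar height is the gene total. SLC16A9 holds one transcript in NTC and shRBBP5 and another in shHKDC1, with a total called in no comparison. SLC13A5 lacks NM_001143838.3, at 0.554 CPM in NTC, in both knockdown libraries.

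Genes that work with carriers were read from lists. Of 12 partners and regulators of carriers, the arrestin-like genes TXNIP and ARRDC3 had rows and passed the filter. TXNIP, which promotes the internalisation of glucose transporters, was at 1.64 CPM in NTC, 0.252 CPM in shHKDC1 and 3.55 CPM in shRBBP5, so that it was called lower in shHKDC1 (−2.68 [−3.97 to −1.48]) and higher in shRBBP5 (1.11 [0.70 to 1.54]). ARRDC3 was at 1.76, 2.71 and 4.12 CPM and was called higher in shRBBP5 alone (1.22 [0.84 to 1.64]). TXNIP lay on opposite sides of NTC in the knockdown libraries.

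Of 11 organic anion transporting polypeptides, whose symbols start with SLCO and fall outside the rule, 7 had rows and 2 passed the filter. SLCO2B1, a hepatocyte uptake transporter of steroid sulfates and drugs, was at 4.42 CPM in NTC, 1.91 CPM in shHKDC1 and 4.68 CPM in shRBBP5, called lower in shHKDC1 (−1.21 [−1.71 to −0.76]). SLCO3A1 was at 0.411, 1.26 and 0.176 CPM and called higher in shHKDC1 (1.61 [0.77 to 2.55]). Among 10 genes of sulfate use, 2 passed. PAPSS2, which makes the activated sulfate donor, was at 2.67, 2.45 and 2.24 CPM and was not called. The sulfotransferase SULT2A1 was at 0.885, 0.0968 and 0.263 CPM and was called lower in both knockdowns, at −3.13 [−5.28 to −1.29] and −1.74 [−2.81 to −0.70].

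Among 10 genes of thyroid hormone and aromatic amino acid handling, 4 passed, and 1 of them was called lower in each knockdown. This was TPH1, a tryptophan hydroxylase, at 0.662 CPM in NTC, 0.106 CPM in shHKDC1 and 0.307 CPM in shRBBP5. The thyroid hormone receptor THRB was at 16.1, 8.99 and 12.3 CPM and was not called, and the deiodinases DIO2 and DIO3 were not called either. Of 8 genes of the amino acid response, 0 had a row.

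The threshold on the mean fell between SLC49A3, at a mean of 0.327 CPM, and the peptide transporter SLC15A2, at 0.272. The next members inside were SLC13A5 at 0.340 and SLC38A5 at 0.373 CPM, and the next symbols outside were SLC2A7 at 0.255 and SLC60A1 at 0.255 CPM.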

How the data were processed

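RNA of PLC cells was measured in 3 libraries, 1 per group. The authors deposited a table of estimated counts (expected counts, whole numbers not scaled for library size or length) with 43704 rows. Per the submitters' processing notes, the tools were StringTie 1.3.4, HISAT2 2.2.1 and DESeq2 1.28.1, with hg19 as build, and no role or order. Annotation, strand setting and counting tool: not given in the sources used here. Its columns were matched to the labels by the abbreviations NTC, shHD and shRB.

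NM_ accessions were matched to symbols without version numbers in RefSeq (GRCh38.p14), which named all but 32 of 19383, and were summed per symbol. Libraries were scaled by TMM with edgeR 4.0.16 in R 4.3.3 over loci and summed RefSeq rows, with factors of 1.083, 0.894 and 1.032 for NTC, shHKDC1 and shRBBP5. Log2 ratios used a pseudocount of 0.5 units. Low values piled up at 4 units (525 rows of NTC, against 332 at 3 and 235 at 5), so 1 fragment was taken as 4 units. This assumption sets the width of every interval, and without molecular identifiers intervals and floors cover counting error only. A count of 0 allows 3 fragments, which is 0.0685 CPM for NTC, 0.116 for shHKDC1 and 0.0752 for shRBBP5. Because the values are single libraries, edgeR was used for scaling alone. Transcript lengths came from GENCODE 29 through its RefSeq table. Python 3.11.15, NumPy 2.4.6, SciPy 1.17.1 and pandas 2.3.3 were used.

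The carriers, the gene lists, the thresholds and the alternatives were chosen with earlier results of these data known. Genes named with values are SLC26A2, SLC16A10, all called members, the 5 most abundant and the 3 nearest each side of the threshold, and the other members were added after their values were seen. Alternatives were other library scalings (DESeq2 1.42.0 size factors among them), pseudocount, filters, fragment size, row choice and fold.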

Additional observations from a re-analysis of the deposited data

Results flagged for a closer look

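A signal outside the coding rows was present for SLC16A7. Its noncoding RefSeq row, which the gene totals leave out, was listed at 0 in NTC and reached 0.310 CPM in shHKDC1 and 0.389 CPM in shRBBP5, above the 0.0685 CPM that a count of 0 allows in NTC. The coding rows of the gene were at 1.28 CPM in NTC and listed at 0 in the knockdown libraries. Whether the values of the coding and noncoding rows are linked was not tested.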

How the results depend on the processing

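Scaling by total counts, upper quartiles or DESeq2 size factors, a pseudocount of 5 units, units taken as reads, fully named genes alone, the most abundant row of each gene, and noncoding rows added (chosen after the data were seen) kept each count of called carriers within 1.5 times its value. A filter of 1 CPM left 14 carriers, with 0 higher and 5 lower in shHKDC1 against NTC, 0 and 2 in shRBBP5, and 0 and 4 directly. The lower calls were 35.7%, 14.3% and 28.6% of these carriers, beside 24.2%, 9.20% and 19.1% of the 967 named genes at 1 CPM. The higher calls of those named genes are given below. With no filter, 109 carriers with any units gave 5 higher in shHKDC1, 4 higher and 8 lower in shRBBP5 and 8 higher directly. Of 4214 named genes so taken, 11.0% were higher in shHKDC1, 3.04% higher and 5.98% lower in shRBBP5 and 13.5% higher directly. A 1.5-fold rule gave 4, 2 and 5 higher in the 3 comparisons, beside 20.2%, 8.36% and 24.45% of the 1591 named genes. Over all named genes the higher calls of 246, 76 and 305 of 1591 became 82, 25 and 116 of 967 at 1 CPM. With no filter they were 464, 128 and 569 of 4214. In both settings the shares of higher calls were smaller than under the filter on the mean. The 188 lower calls in shRBBP5 became 89 of 967 at 1 CPM. At 1.5-fold, lower calls were 511 against 339 in shHKDC1 and 338 against 188 in shRBBP5, all of 1591 genes. Of the 32 carriers, the 1.5-fold rule called 10 lower in shHKDC1, 6 in shRBBP5 and 9 directly. These were 31.25%, 18.75% and 28.1% of the carriers, beside 32.1%, 21.2% and 24.5% of named genes. That rule put 133 genes higher in shRBBP5, where the most abundant row alone gave 139 of 1529. With the most abundant row, SLC1A6 turned to 2.50 and SLC52A1 to −1.39 in shRBBP5, the direct call of SLC1A6 was lost at 0.84, and SLC6A12 gave no value in shHKDC1, where that row is at 0 in both libraries. That setting also made calls of 10 ratios not called otherwise, in SLC10A7, SLC16A9, SLC1A6, SLC46A3, SLC22A31, SLC30A8, SLC6A12 and SLC52A1, 4 of them against a row at 0. The cause was not tested. Units taken as reads added direct calls of SLC13A5 and SLC1A1. Upper quartiles put the direct median of all named genes at 0.09 and that of the carriers at −0.13. No paired analysis was possible because each group has 1 library, and for the same reason no library could be left out. Members under 1 CPM rest on few fragments, which limits the size of their differences to the intervals given.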

Other observations

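Among RNAs named after carriers that are not carriers themselves, SLC5A4-AS1, antisense to a member of the sodium-glucose family, was at 3.52 CPM in NTC, 0.406 CPM in shHKDC1 and 5.00 CPM in shRBBP5. Its log2 ratio to NTC was −3.10 [−4.08 to −2.17] in shHKDC1 and 0.51 [0.20 to 0.82] in shRBBP5. The pseudogene SLC9A7P1 was at 2.79, 1.20 and 1.37 CPM, lower in both knockdown libraries at −1.21 [−1.83 to −0.64] and −1.02 [−1.50 to −0.54]. SLC38A4-AS1 was at 1.59, 2.65 and 2.43 CPM and met the 2-fold rule in neither. These RNAs were picked with their values in view.

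Of the 113 SLC symbols under the threshold, 36 were at 0 in every library and 77 had units, of which 15 (19.5%) were called in some comparison, beside 18.6% of the 2623 named genes under the threshold with units. The 4 named next were picked with their values in view. SLC13A2, a sodium-dicarboxylate cotransporter and relative of SLC13A5, was at 0.263 CPM in NTC, listed at 0 in shHKDC1 and at 0.0251 CPM in shRBBP5. SLC22A10 was at 0.285 CPM in NTC, 0.339 CPM in shHKDC1 and 0.0188 CPM in shRBBP5. SLC23A3 and the renal phosphate cotransporter SLC34A1 were listed at 0 in shHKDC1, at 0.342 and 0.205 CPM in NTC and at 0.257 and 0.414 CPM in shRBBP5.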
